A study of Mus musculus with 16 samples.

Results

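The matrix metalloproteinases (MMPs) and their tissue inhibitors (TIMPs) described here are 9 genes of the deposited count table, taken by gene name out of 56748 genes: the collagenases Mmp8 and Mmp13, the gelatinase Mmp9, the macrophage elastase Mmp12, the membrane-bound Mmp14 and Mmp25, the secreted Mmp19, and the inhibitors Timp1 and Timp2. They were followed in bone marrow-derived macrophages, cells grown from marrow of wild-type male C57BL6 mice in medium with L929 cell supernatant, a source of the macrophage growth factor M-CSF. Each of 4 mice gave 1 library to each of 4 groups of 4 libraries. Cells of the SR9009 and LPS group received 10 µM SR9009 for 16 hours and then 100 ng/mL LPS for 6 hours, the LPS group received LPS at the same dose and time, the SR9009 group received SR9009 without LPS, and the DMSO group received the vehicle. LPS, lipopolysaccharide, comes from the outer membrane of Gram-negative bacteria and is sensed by Toll-like receptor 4, and SR9009 is a synthetic agonist of REV-ERBα and REV-ERBβ, nuclear receptors that repress transcription in the circadian clock. Labels of the LPS group list only LPS, with no word on an overnight vehicle, so a difference in vehicle cannot be told apart from the LPS effect against DMSO or from the SR9009 effect against LPS alone.

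MMPs are zinc-dependent proteases that cut collagens, elastin and other proteins of the extracellular matrix and also release or inactivate cytokines and chemokines. They are made as inactive proenzymes, are activated by removal of a propeptide, and are blocked by TIMPs, which bind the active site. Macrophages are a known source of several MMPs, and in mouse macrophages REV-ERBs are known to repress Mmp9. Transcript levels say nothing of proenzyme activation or of inhibitor binding, which act on the proteins.

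Total counts ran from 12616442 to 24214863 per library. The SR9009 library of mouse 1 had the fewest, and it also had the fewest genes with a count, 13298 against 16419 to 18947 in the others. All 8 macrophage markers on the list used here (among them Adgre1, Csf1r and Cd68) were detected in every group, with summed levels of 9453 to 9769 CPM in SR9009 and LPS, 9134 to 9810 CPM in LPS, 5777 to 8855 CPM in SR9009 and 6874 to 10710 CPM in DMSO libraries. CPM is a gene's count relative to the library's total scaled with TMM factors, and it is used to compare 1 gene between groups. FPKM, a count per kilobase of transcript scaled by 1 factor per library, is used where different genes are compared. In these bulk libraries fewer cells that express a gene and less RNA per cell cannot be told apart.

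All 9 genes passed the filter on low counts, which asked for about 0.509 CPM, on library totals without TMM scaling, in 4 libraries. Timp1 passed through the LPS-containing groups, since 0 of 4 SR9009 and 2 of 4 DMSO libraries reached that level. Mmp25 reached it in 2 of 4 and Mmp9 in 3 of 4 SR9009 libraries. The other members reached it in all 16 libraries. Mmp9, Mmp25 and Timp1 had 0 counts in the SR9009 library of mouse 1, where a floor of 3 counts corresponds to 0.209 CPM.

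The promoters of Mmp13, Mmp12, Mmp25 and Timp1 are shown because Mmp13, Mmp25 and Timp1 had the 3 largest log2 fold changes with LPS among the 9 genes and Mmp12 was the member that changed with SR9009 alone. RefSeq promoters on the mouse build GRCm38.p6 (250 bases before to 50 bases after each start) were found for 7 of the 9 genes, 8 promoters in all, since Mmp12 had 2 start sites. Those shown are written 5′ to 3′ on the gene's own strand, and capitals mark matches to the motifs searched. For Mmp12 only site 2, which held matches, is written out, and site 1 held none. Mmp13 lies at chr9:7272264-7272563 on the plus strand, Mmp12 site 1 at chr9:7344147-7344446 and site 2 at chr9:7347124-7347423 on the plus strand, Mmp25 at chr17:23645220-23645519 on the minus strand, and Timp1 at chrX:20869916-20870215 on the plus strand.
Mmp13: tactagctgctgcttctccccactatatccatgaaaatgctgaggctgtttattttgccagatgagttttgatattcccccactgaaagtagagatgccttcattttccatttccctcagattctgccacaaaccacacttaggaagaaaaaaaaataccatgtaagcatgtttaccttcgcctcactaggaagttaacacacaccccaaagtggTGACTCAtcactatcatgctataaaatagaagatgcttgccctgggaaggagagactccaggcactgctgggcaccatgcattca
Mmp12 site 2: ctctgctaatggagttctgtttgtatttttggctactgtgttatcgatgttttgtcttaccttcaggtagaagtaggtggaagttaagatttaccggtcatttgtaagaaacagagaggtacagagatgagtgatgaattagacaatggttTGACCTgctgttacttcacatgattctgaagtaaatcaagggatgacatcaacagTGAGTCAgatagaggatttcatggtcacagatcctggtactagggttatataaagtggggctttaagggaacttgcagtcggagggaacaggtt
Mmp25: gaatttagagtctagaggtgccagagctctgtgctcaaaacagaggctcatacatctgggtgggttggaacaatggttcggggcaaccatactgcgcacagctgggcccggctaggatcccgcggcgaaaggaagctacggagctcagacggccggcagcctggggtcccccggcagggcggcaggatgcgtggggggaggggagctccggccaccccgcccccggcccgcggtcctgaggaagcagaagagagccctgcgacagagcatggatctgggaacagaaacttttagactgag
Timp1: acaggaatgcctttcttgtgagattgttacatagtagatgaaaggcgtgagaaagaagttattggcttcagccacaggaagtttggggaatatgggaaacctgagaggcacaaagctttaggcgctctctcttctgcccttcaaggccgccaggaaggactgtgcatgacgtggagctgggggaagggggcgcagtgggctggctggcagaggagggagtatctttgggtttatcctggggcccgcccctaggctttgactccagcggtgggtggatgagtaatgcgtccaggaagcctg

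Both strands were searched for the AP-1 site TGANTCA, the REV-ERB half-site AGGTCA, the E-box CACGTG, an NF-kB site (GGG, any 2 bases, then TTTCC) and the antioxidant response element core TGACNNNGC. The Mmp13 promoter held 1 AP-1 match, TGACTCA at -35 from the start. Mmp12 site 2 held an AP-1 match, TGAGTCA at -44, and a REV-ERB half-site read on the opposite strand as TGACCT at -99. The Timp2 promoter held an antioxidant response element core at -152. No motif searched was found in these windows of Mmp8, Mmp12 site 1, Mmp14, Mmp25 and Timp1, and the matches that were found did not overlap each other. Among 32851 mouse promoters of the same length, 7.81% held the AP-1 site, 16.3% the REV-ERB half-site, 7.15% the E-box, 1.63% the NF-kB site and 12.4% the antioxidant response element core. Which Mmp12 start site these cells used is not given by counts per gene.

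With LPS alone, 4 of the 9 genes rose against DMSO (Mmp13, Mmp25, Timp1 and Mmp14) and 1 fell (Timp2) by edgeR's quasi-likelihood test with Benjamini-Hochberg adjustment, while 19.4% of the 13438 genes tested were called higher and 20.4% lower. Of these members, Timp1 had passed the filter on low counts through the LPS-containing groups. The median log2 fold change of the 9 genes was 1.58, beside -0.08 for all genes tested. LPS and DMSO libraries did not overlap for 6 genes that were higher and 1 that was lower, where the same was seen for 27.0% (higher) and 30.5% (lower) of all genes tested. Over all genes 2611 were called higher and 2741 lower, and under upper-quartile scaling, which put the median of all genes at -0.28, 2126 were called higher and 3459 lower, with the same 5 members called. This comparison shares its LPS libraries with that of SR9009 and LPS against LPS, and its DMSO libraries with that of SR9009 against DMSO.

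Mmp13, the collagenase known for its action on fibrillar collagens, had the largest response of the 9 genes. The gene lies on chromosome 9 from 7272514 to 7283331 on the plus strand of GRCm39, the build of the deposited tables, and encodes a protein. In mice 1 to 4 its level was 1996, 3295, 1539 and 1787 CPM with LPS, against 8.65, 6.69, 2.94 and 5.39 CPM with DMSO. The lowest LPS library stood far above the highest DMSO library. The mean was 2154 ± 783 CPM with LPS and 5.92 ± 2.39 CPM with DMSO (SD, n = 4 each), a log2 fold change of 8.51 (SE 0.53, edgeR adjusted p = 2.83e-08), which is 364-fold.

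Mmp14, a membrane-anchored collagenase that also activates the MMP2 proenzyme, had 2911, 2872, 2495 and 2361 CPM with LPS, against 508, 521, 185 and 151 CPM with DMSO. The DMSO libraries of mice 1 and 2 were higher than those of mice 3 and 4, and all LPS libraries were above all DMSO libraries. The log2 fold change was 2.96 (SE 0.39, edgeR adjusted p = 2.16e-05), and the fold by mouse was 5.73, 5.51, 13.5 and 15.6. Mmp14 lies on chromosome 14 from 54669069 to 54682821 on the plus strand, where a long non-coding RNA gene (ENSMUSG00000120849) overlaps it on the same strand. That gene averaged 48.8 ± 8.12 CPM with LPS and 7.81 ± 5.68 CPM with DMSO (SD, n = 4 each), and how reads shared by overlapping genes were counted is not given in the sources used here.

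Mmp25, a membrane-type MMP held by a lipid anchor and known from leukocytes, had 37.9, 64.0, 38.5 and 43.7 CPM with LPS, against 0.592, 1.23, 0.735 and 0.526 CPM with DMSO. No library overlapped between the groups, and mouse 2 had the highest level in each. Mmp25 rose with a log2 fold change of 5.89 (SE 0.59, edgeR adjusted p = 1.58e-06). The gene lies on chromosome 17 from 23847285 to 23864251 on the minus strand.

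Timp1, the inhibitor known to bind MMP9 and to block MMP14 poorly, had 19.6, 29.6, 10.8 and 11.1 CPM with LPS, against 0.182, 0.0769, 0.568 and 0.953 CPM with DMSO. The DMSO values rest on 4, 2, 17 and 29 counts. Timp1 thus rose, with a log2 fold change of 5.27 (SE 0.82, edgeR adjusted p = 0.000111). It passed the filter on low counts through the LPS-containing groups, which favours a call of higher with LPS. Timp1 lies on chromosome X from 20736405 to 20740974 on the plus strand, inside the span of Syn1 on the opposite strand. Syn1 averaged 10.9 ± 3.798 CPM with LPS and 8.36 ± 1.86 CPM with DMSO (SD, n = 4 each). Whether counting used strand is not given, so reads of Timp1 and Syn1 cannot be told apart where they overlap.

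Timp2, the inhibitor that also takes part with MMP14 in activating the MMP2 proenzyme, went the other way. It had 164, 166, 143 and 135 CPM with LPS, against 431, 450, 455 and 425 CPM with DMSO. The groups were far apart and each was tight, with a log2 fold change of -1.53 (SE 0.23, edgeR adjusted p = 7.6e-05). In every mouse the LPS level was 31.3% to 38.0% of the DMSO level. Timp2 lies on chromosome 11 from 118191895 to 118246566 on the minus strand.

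The other 4 members did not pass the threshold in this comparison. Mmp9, gelatinase B, lies on chromosome 2 from 164782700 to 164797770 on the plus strand, and it had 4.49, 5.49, 6.22 and 7.56 CPM with LPS, against 3.73, 2.69, 0.936 and 0.658 CPM with DMSO. Its LPS libraries were all above its DMSO libraries, but the fold by mouse ran from 1.20 in mouse 1 to 11.5 in mouse 4, and the log2 fold change was 1.58 (SE 0.79, edgeR adjusted p = 0.125). Mmp9 was called in 5 alternatives, which were those without mouse 1 (adjusted p = 0.0199) or its SR9009 library (0.0445), the compared groups fitted alone (0.0208), and limma on log2(FPKM + 1) (0.0312) or log2(FPKM + 0.1) (0.0457). Mmp12 averaged 40.6 ± 8.93 CPM with LPS and 26.6 ± 3.35 CPM with DMSO (SD, n = 4 each), without overlap, with a log2 fold change of 0.61 (SE 0.37, edgeR adjusted p = 0.214), and it was called when LPS and DMSO were fitted alone (adjusted p = 0.0106). Mmp19 (chromosome 10, 128626779 to 128636693, plus strand) averaged 51.7 ± 21.0 CPM with LPS and 30.4 ± 5.50 CPM with DMSO (SD, n = 4 each), with a log2 fold change of 0.77 and an edgeR adjusted p of 0.0772. With the mouse as a replicate block Mmp19 was called higher (log2 fold change 0.70, adjusted p = 0.0344), and likewise by DESeq2 (0.0413), with the compared groups alone (0.0379), when the LPS library of mouse 4 was left out (0.0417), and with the block and no SR9009 library of mouse 1 (0.00347). Tmem198b overlaps Mmp19 on the opposite strand and averaged 11.4 ± 1.48 CPM with LPS and 12.6 ± 1.13 CPM with DMSO (SD, n = 4 each). Mmp8, the collagenase known from neutrophil granules (chromosome 9, 7558457 to 7568486, plus strand), averaged 11.4 ± 1.76 CPM with LPS and 14.5 ± 3.45 CPM with DMSO (SD, n = 4 each), with an edgeR adjusted p of 0.447, and was called lower with the block when the SR9009 library of mouse 1 was left out (0.0179).

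**Figure D1:**
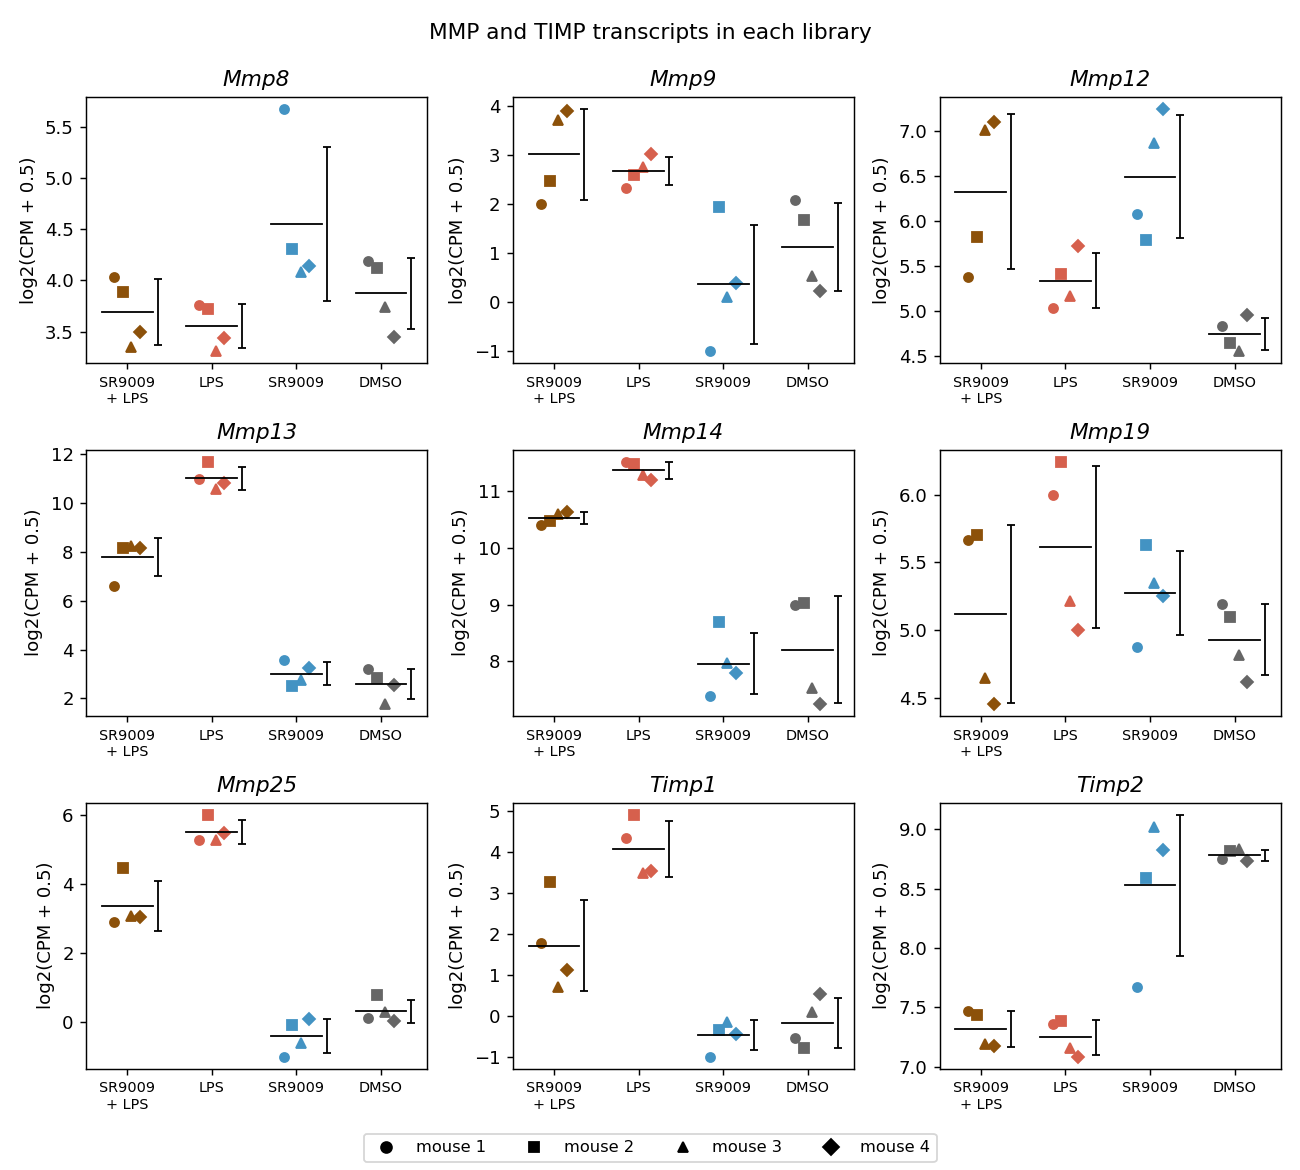
Level of each of the 9 genes in every library, as log2(CPM + 0.5), with each gene on its own axis. Points are libraries with the mouse given by the symbol, horizontal bars are means and vertical bars are SD over 4 libraries. Mmp13 stands apart in each LPS-containing group, and Timp2 is low in both of them.

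The 9 genes are shown side by side in the plot of levels by library. With SR9009 alone, 1 of the 9 genes was called against DMSO: Mmp12, which rose, where 0.313% of the genes tested were called higher and 0.566% lower. Mmp12, the macrophage metalloelastase, had 66.8, 54.7, 116 and 151 CPM with SR9009, against 28.1, 24.6, 23.1 and 30.5 CPM with DMSO. Every SR9009 library was above every DMSO library, and the fold by mouse was 2.38, 2.22, 5.04 and 4.96. Non-overlap of that kind was seen for 1 of the 9 genes and for 4.90% of all genes tested, and non-overlap with SR9009 lower for 0 of the 9 and for 4.64%. The log2 fold change was 1.87 (SE 0.38, edgeR adjusted p = 0.0305), and the means were 97.3 ± 44.8 CPM with SR9009 and 26.6 ± 3.35 CPM with DMSO (SD, n = 4 each). The call was lost without mouse 2 (adjusted p = 0.176), mouse 3 (0.331) or mouse 4 (0.326), without each DMSO library in turn (0.0793 to 0.137), without the SR9009 library of mouse 3 (0.0807) or mouse 4 (0.112), and when the compared groups were fitted alone (0.124). The log2 fold change stayed between 1.50 and 2.06 in all 31 alternatives. Mmp12 lies on chromosome 9 from 7344381 to 7369499 on the plus strand.

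The other 8 genes did not pass the threshold with SR9009 alone, and the median log2 fold change of the 9 genes was -0.17, beside 0.01 for all genes tested. Mmp8 had 50.7, 19.3, 16.4 and 17.2 CPM with SR9009, against 17.7, 16.9, 12.8 and 10.4 CPM with DMSO. It was higher with SR9009 in 4 of 4 mice, most in mouse 1, and the log2 fold change was 0.84 (SE 0.34, edgeR adjusted p = 0.366). Timp2 had 204, 385, 518 and 454 CPM with SR9009, against 431, 450, 455 and 425 CPM with DMSO, so that mouse 1 was the lowest and the groups overlapped. Mmp14 averaged 262 ± 105 CPM with SR9009 and 341 ± 201 CPM with DMSO, and Mmp13 averaged 7.93 ± 2.80 CPM with SR9009 and 5.92 ± 2.39 CPM with DMSO (SD, n = 4 each). Mmp9 had 0, 3.32, 0.564 and 0.813 CPM with SR9009, against 3.73, 2.69, 0.936 and 0.658 CPM with DMSO, and was higher in 2 mice and lower in 2. Mmp25 averaged 0.294 ± 0.261 CPM with SR9009 and 0.771 ± 0.319 CPM with DMSO, and Timp1 averaged 0.233 ± 0.170 CPM with SR9009 and 0.445 ± 0.399 CPM with DMSO (SD, n = 4 each), from 0 to 32 counts per library.

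When SR9009 preceded LPS, 2 of the 9 genes fell against LPS alone, Mmp13 and Mmp25, and 0 rose, where 0.737% of the genes tested were called lower and 1.06% higher. DESeq2 and limma-voom also called 0 members higher, and 1 member, Mmp12, was higher at an unadjusted edgeR p under 0.05. The SR9009 and LPS libraries lay wholly below the LPS libraries for 4 genes (Mmp13, Mmp25, Mmp14 and Timp1), where 7.78% of the genes tested did so, and wholly above them for 0 of the 9, where 6.66% did so. The median log2 fold change of the 9 genes was -0.48, beside 0.02 for all genes tested.

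Mmp13 had 97.9, 287, 298 and 287 CPM with SR9009 and LPS, against 1996, 3295, 1539 and 1787 CPM with LPS. Mouse 1 had the lowest level with SR9009 and LPS, and its own LPS library was not the lowest. The level was 4.91%, 8.72%, 19.4% and 16.1% of that with LPS in mice 1 to 4. The log2 fold change was -3.15 (SE 0.42, edgeR adjusted p = 0.00114), which is 8.88-fold lower. The call was lost without mouse 4 (adjusted p = 0.0753) and held in the other 30 alternatives.

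Mmp25 had 6.93, 21.4, 7.92 and 7.76 CPM with SR9009 and LPS, against 37.9, 64.0, 38.5 and 43.7 CPM with LPS. Mouse 2 had the highest level in both groups, and in every mouse the level was 17.7% to 33.4% of that with LPS. The log2 fold change was -2.06 (SE 0.49, edgeR adjusted p = 0.0410). The call was lost in 16 of 31 alternatives, all of which left out a mouse or a library, among them those without mouse 2 (adjusted p = 0.122), mouse 3 (0.306) and mouse 4 (0.342), those without any 1 of the DMSO libraries (0.0535 to 0.0658) or LPS libraries (0.0654 to 0.147), those without the SR9009 library of mouse 2 (0.0525) or mouse 3 (0.0504), and those without the SR9009 and LPS library of mouse 1 (0.147), mouse 3 (0.101) or mouse 4 (0.110). Its log2 fold change lay between -2.61 and -1.72 in all of the alternatives.

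Timp1 had 2.94, 9.07, 1.14 and 1.66 CPM with SR9009 and LPS, against 19.6, 29.6, 10.8 and 11.1 CPM with LPS. Each mouse was lower, at 10.6% to 30.6% of its LPS level, but the spread between mice was wide and the log2 fold change of -2.26 (SE 0.71) did not pass the threshold (edgeR adjusted p = 0.130). It passed in 6 of 31 alternatives, among them DESeq2 (0.0246), limma-voom (0.0410) and the fits that left out the SR9009 library of mouse 1 (0.0349) or the SR9009 and LPS library of mouse 2 (0.0434). Mmp14 had 1357, 1428, 1545 and 1582 CPM with SR9009 and LPS, against 2911, 2872, 2495 and 2361 CPM with LPS. The groups did not overlap and each mouse held 46.6% to 67.01% of its LPS level, with a log2 fold change of -0.85 (SE 0.36, edgeR adjusted p = 0.304), and Mmp14 was called when these groups were fitted alone (0.0125). The overlapping non-coding gene averaged 29.2 ± 4.33 CPM with SR9009 and LPS and 48.8 ± 8.12 CPM with LPS (SD, n = 4 each).

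Mmp12 differed in direction from these genes. It had 41.2, 56.1, 128 and 136 CPM with SR9009 and LPS, against 32.2, 42.1, 35.5 and 52.4 CPM with LPS. Mice 3 and 4 were high with SR9009 and LPS, mice 1 and 2 were in or near the LPS range, and the log2 fold change of 1.16 (SE 0.38) did not pass the threshold (edgeR adjusted p = 0.147). Mmp12 was called in the fits that left out the SR9009 library of mouse 1, without the block (adjusted p = 0.0471) and with it (0.0211). Mmp9 had 3.47, 5.01, 12.5 and 14.3 CPM with SR9009 and LPS, against 4.49, 5.49, 6.22 and 7.56 CPM with LPS, higher in mice 3 and 4 and lower in mice 1 and 2 (edgeR adjusted p = 0.836). Mmp19 averaged 37.0 ± 16.2 CPM with SR9009 and LPS and 51.7 ± 21.0 CPM with LPS (SD, n = 4 each), and each mouse held 66.96% to 79.4% of its LPS level (edgeR adjusted p = 0.585). Timp2 had 177, 172, 146 and 144 CPM with SR9009 and LPS, against 164, 166, 143 and 135 CPM with LPS, and its log2 fold change was 0.07 (SE 0.23, edgeR adjusted p = 0.948). Mmp8 averaged 12.7 ± 2.91 CPM with SR9009 and LPS and 11.4 ± 1.76 CPM with LPS (SD, n = 4 each), with an edgeR adjusted p of 0.914.

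**Figure D2:**
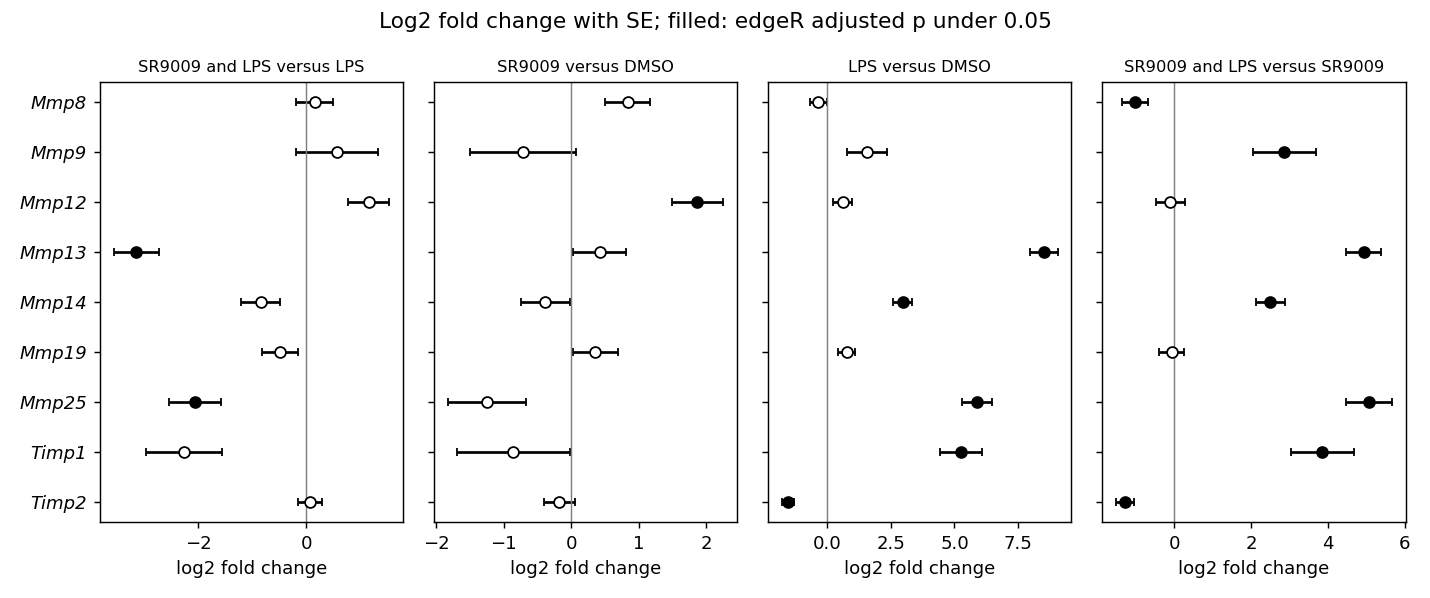
Log2 fold change of each gene in 4 comparisons, each on its own scale, with the SE as bars. Filled points have an edgeR adjusted p under 0.05. Mmp13 at 8.51 has the largest value with LPS, and Mmp12 at 1.87 is the filled point with SR9009 alone.

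Whether LPS altered the response to SR9009 was asked by the interaction, taken as the log2 fold change of SR9009 and LPS over LPS less that of SR9009 over DMSO. In the plot of log2 fold changes Mmp13 shows the widest gap, -3.15 with LPS and 0.42 without. Its interaction was -3.57 on the log2 scale (SE 0.57, edgeR adjusted p = 0.0753), negative in 4 of 4 mice. With the mouse as a replicate block it was -3.55 (SE 0.59, adjusted p = 0.0459), and leaving out mouse 1 (0.0371) or its SR9009 library (0.0230) or applying no filter on low counts (0.0113) also brought it past the threshold. In all, 0 of the 9 genes passed by edgeR without the block, where 0.00744% of the genes tested did. With the block 1 of the 9 passed, where 15 of all 13438 genes tested did. DESeq2 called Mmp13 (adjusted p = 2.58e-06) among 103 genes of the 13438. Limma on log2(FPKM + 1) called Mmp13 (0.00393) and Mmp25 (0.0318) among 49 genes. Limma on log2(FPKM + 0.1) called Mmp13 (0.0256) among 10 genes, and limma-voom called 0 genes. Across all genes 959 had an unadjusted p under 0.05 in the edgeR fit. For Mmp12, which rose with SR9009 alone, the interaction was -0.72 (SE 0.53, edgeR adjusted p = 0.839), which did not pass the threshold.

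LPS after SR9009, compared with SR9009 alone, gave 5 genes that rose (Mmp9, Mmp13, Mmp14, Mmp25 and Timp1) and 2 that fell (Mmp8 and Timp2), where 14.5% of the genes tested were called higher and 15.8% lower. The median log2 fold change of the 9 genes was 2.50, beside -0.12 for all genes tested. Mmp13 averaged 243 ± 96.5 CPM with SR9009 and LPS and 7.93 ± 2.80 CPM with SR9009 (SD, n = 4 each), a log2 fold change of 4.94 (SE 0.46, edgeR adjusted p = 1.01e-06). Mmp25 (log2 fold change 5.07), Timp1 (3.86) and Mmp14 (2.50) were also called. For Timp1, which passed the filter through the LPS-containing groups, that filter favours the call here too. The groups did not overlap for any of the 7 genes called, where 13.9% of the genes tested were higher and 13.4% lower without overlap. Mmp9 had 3.47, 5.01, 12.5 and 14.3 CPM with SR9009 and LPS, against 0, 3.32, 0.564 and 0.813 CPM with SR9009. The fold of Mmp9 was 1.51 in mouse 2, 22.2 in mouse 3 and 17.6 in mouse 4, and its log2 fold change of 2.86 (edgeR adjusted p = 0.0149) was not called without mouse 3 (0.127) or mouse 4 (0.124), or when the compared groups were fitted alone (0.0852).

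Timp2 fell in the same comparison, to 160 ± 17.2 CPM with SR9009 and LPS, against 390.3 ± 136 CPM with SR9009 (SD, n = 4 each), a log2 fold change of -1.29 (SE 0.23, edgeR adjusted p = 0.000491). The SR9009 and LPS level was 86.7% of the SR9009 level in mouse 1 and 28.2% to 44.7% of it in the other mice. Mmp8 fell with a log2 fold change of -1.03 (SE 0.34, edgeR adjusted p = 0.0311). Without the SR9009 library of mouse 1, which held 50.7 CPM, the log2 fold change of Mmp8 was -0.41 (adjusted p = 0.140), and the call was lost in 13 of 31 alternatives, among them those without any 1 of the mice (0.0547 to 0.0890) and those without the SR9009 and LPS library of mouse 2, 3 or 4 (0.0524 to 0.0871). Mmp12 (log2 fold change -0.11) and Mmp19 (-0.07) did not pass.

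Measured per length, the composition of the family differed between the groups. Summed over the 9 genes, FPKM was 412 ± 46.3 with SR9009 and LPS, 1356 ± 364.8 with LPS, 174 ± 31.8 with SR9009 and 186 ± 35.9 with DMSO (SD, n = 4 each). Unlike shares within a library, such sums also rest on the factor by which the FPKM of each library was scaled. Mmp14 made up 59.9% of this sum with SR9009 and LPS, Mmp13 21.2% and Timp2 10.0%. With LPS, Mmp13 made up 58.8%, Mmp14 34.1% and Timp2 2.98%. With SR9009, Timp2 made up 53.5%, Mmp14 23.96% and Mmp12 7.38%. With DMSO, Timp2 made up 60.6%, Mmp14 28.1%, Mmp19 4.49%, Mmp8 3.09% and Mmp12 1.98%. A single MMP or TIMP gene thus held most of the summed FPKM in each group on average, and that gene was Mmp14 with SR9009 and LPS, Mmp13 with LPS, and Timp2 with SR9009 and with DMSO.

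**Figure D3:**
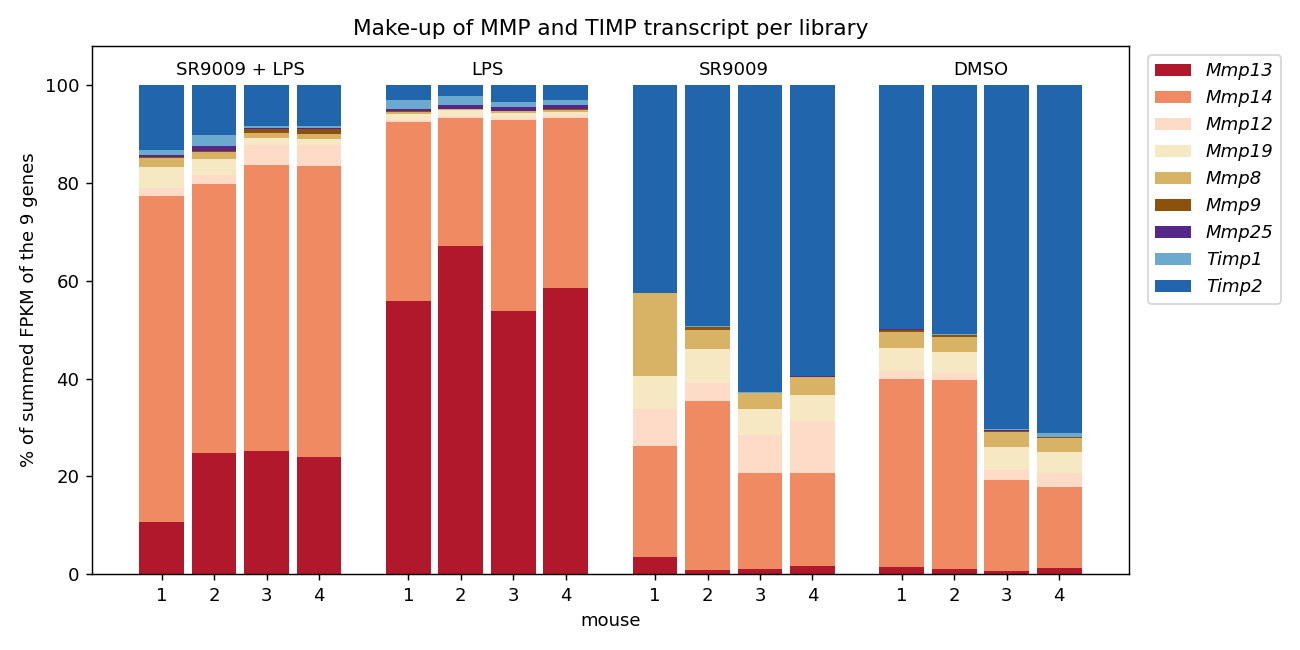
Share of each gene in the summed FPKM of the 9 genes, in percent, with 1 bar per library and mice numbered 1 to 4 in each group. Mmp13 takes 53.7% to 67.1% of the sum in LPS libraries and 10.7% to 25.2% in SR9009 and LPS libraries, and Timp2 takes 42.5% or more in each library without LPS.

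As the plot of shares by library shows, the mice of a group were alike in which gene led, with Mmp13 ahead of Mmp14 in 4 of 4 LPS libraries and behind it in 4 of 4 SR9009 and LPS libraries. The ratio of Mmp13 to Mmp14 FPKM was 0.361 ± 0.135 with SR9009 and LPS and 1.79 ± 0.529 with LPS, and 0.0815 ± 0.0535 with SR9009 and 0.0453 ± 0.0230 with DMSO (SD, n = 4 each). The summed FPKM of the 7 MMPs divided by that of the 2 TIMPs was 8.48 ± 2.32 (6.02 to 10.5) with SR9009 and LPS and 21.8 ± 1.66 (19.8 to 23.2) with LPS, and 0.910 ± 0.348 with SR9009 and 0.692 ± 0.334 with DMSO (SD, n = 4 each). Within the TIMP sum, Timp1 made up 8.42% with SR9009 and LPS, 32.4% with LPS, 0.225% with SR9009 and 0.445% with DMSO. These ratios are of transcripts and were not tested.

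Ranked by mean FPKM, the order with SR9009 and LPS was Mmp14 (245), Mmp13 (89.6), Timp2 (40.7), Mmp12 (12.3), Mmp19 (10.4), Mmp8 (5.18), Timp1 (4.16), Mmp9 (2.45) and Mmp25 (2.06 FPKM). Neighbours in that order had overlapping libraries except Mmp14 over Mmp13 and Timp2 over Mmp12. With LPS the order was Mmp13 (812), Mmp14 (449), Timp2 (39.3), Timp1 (20.3), Mmp19 (14.8), Mmp25 (8.73), Mmp12 (5.62), Mmp8 (4.72) and Mmp9 (1.68 FPKM). There the pairs Timp1 and Mmp19, Mmp19 and Mmp25, and Mmp12 and Mmp8 overlapped and the other neighbours were separate. With SR9009 the order was Timp2 (94.7), Mmp14 (41.7), Mmp12 (12.8), Mmp19 (10.5), Mmp8 (10.5), Mmp13 (2.87), Mmp9 (0.310), Timp1 (0.245) and Mmp25 (0.0519 FPKM), and the neighbours overlapped except at the steps from Mmp14 to Mmp12, from Mmp8 to Mmp13 and from Mmp13 to Mmp9. With DMSO it was Timp2 (109.8), Mmp14 (55.6), Mmp19 (8.34), Mmp8 (5.79), Mmp12 (3.57), Mmp13 (2.15), Mmp9 (0.549), Timp1 (0.489) and Mmp25 (0.141 FPKM), where Mmp19 and Mmp8, Mmp12 and Mmp13, and the last 3 genes overlapped with their neighbours.

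Mmp13, Mmp12 and Mmp8 belong to a cluster of 10 MMP genes on chromosome 9 that spans 7272514 to 7699586 in GRCm39, with 0 other protein-coding genes in the span. Over all 16 libraries Mmp13 had 135211 counts, Mmp12 21141 and Mmp8 5185. Their neighbours Mmp27 had 1495 counts, Mmp10 had 36, Mmp3 had 19 and Mmp1b had 1, and Mmp1a, Mmp20 and Mmp7 had 0. The cluster thus held members that rose with LPS (Mmp13), rose with SR9009 alone (Mmp12) and passed the threshold in neither of these comparisons (Mmp8), beside genes with few or no counts.

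**Figure D4:**
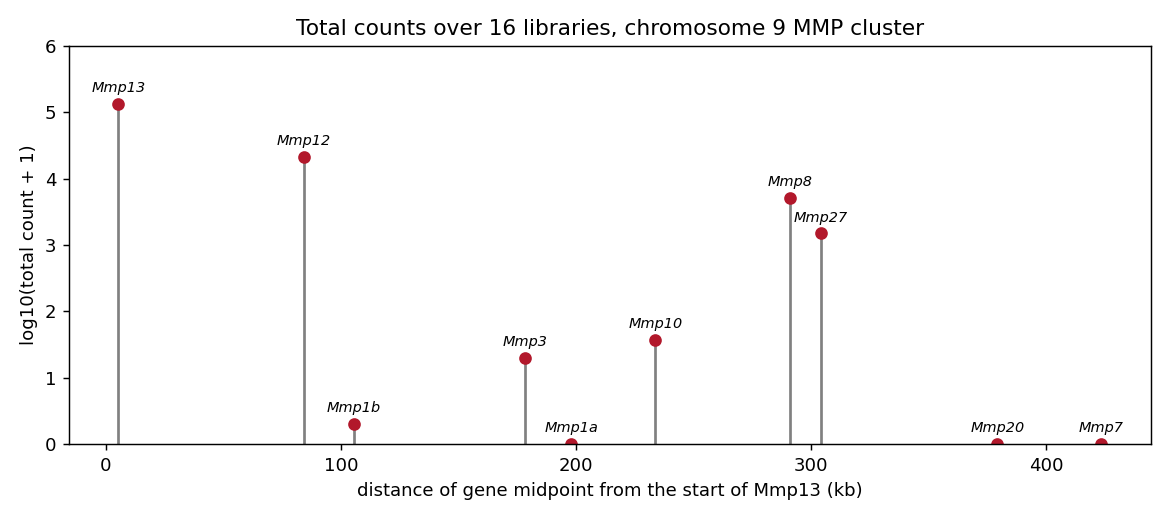
Counts summed over the 16 libraries for the 10 MMP genes of the chromosome 9 cluster, as log10(count + 1), against the distance of the gene's midpoint from the start of Mmp13 in kb. Mmp13, Mmp12, Mmp8 and Mmp27 have the most counts, and 3 genes have 0.

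The plot of the chromosome 9 cluster places these counts by distance. Of the 16 other MMP genes listed, 5 had enough counts to be tested. With LPS against DMSO 1 rose, Mmp28 (log2 fold change 2.48, SE 0.85, edgeR adjusted p = 0.0282), which averaged 5.25 ± 3.72 CPM with LPS and 0.937 ± 0.248 CPM with DMSO (SD, n = 4 each), and 0 fell, where 19.4% of all genes tested were called higher and 20.4% lower. The fit with the mouse as a block called 2 higher and 0 lower, DESeq2 1 higher and 1 lower, and limma-voom 1 higher and 0 lower. At an unadjusted edgeR p under 0.05, 1 was higher and 1 lower. With SR9009 and LPS against SR9009 1 rose (14.5% of all genes did), Mmp2, the gelatinase whose proenzyme MMP14 activates (log2 fold change 2.36, edgeR adjusted p = 0.0413), at 5.89 ± 2.07 CPM with SR9009 and LPS and 1.13 ± 1.34 CPM with SR9009 (SD, n = 4 each). In SR9009 against DMSO, in SR9009 and LPS against LPS and in the interaction, 0 of the 5 passed by edgeR, 0 had an unadjusted p under 0.05, and DESeq2 and limma-voom called 0. The other TIMP genes, Timp3 and Timp4, had 0 counts.

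Genes that activate, bind or clear MMPs were listed as 19, of which 11 were tested. With LPS against DMSO 7 of the 11 rose and 1 fell, where 19.4% of all genes tested were called higher and 20.4% lower, with a median log2 fold change of 0.97 beside -0.08 for all genes. The gene with the smallest p was Lcn2, which encodes lipocalin 2, a protein known to bind MMP9, at 638 CPM with LPS and 0.221 CPM with DMSO (log2 fold change 11.49, edgeR adjusted p = 6.38e-08). Plat and Plau encode the tissue-type and urokinase-type plasminogen activators; plasmin can activate MMP proenzymes. Plat rose (log2 fold change 5.34) to 2.12 CPM with LPS, against 0.0454 CPM with DMSO, and Plau fell (log2 fold change -2.09) to 7.24 CPM with LPS, against 30.9 CPM with DMSO. Lcn2 had 1 to 11 counts and Plat 0 to 3 counts per DMSO library, under the level of the filter. Both passed the filter through the LPS-containing groups, which favours a call of higher with LPS. Furin, a convertase that activates the MMP14 proenzyme inside the cell, rose (log2 fold change 1.94) to 787 CPM with LPS, against 206 CPM with DMSO. With SR9009 alone 0 of the 11 passed by edgeR, DESeq2 or limma-voom, and 2 were higher at an unadjusted edgeR p under 0.05. With SR9009 and LPS against LPS 1 fell, where 0.737% of all genes did: Lcn2, at 132 CPM with SR9009 and LPS and 638 CPM with LPS (log2 fold change -2.27, edgeR adjusted p = 0.0392). With SR9009 and LPS against SR9009 5 rose and 1 fell, where 14.5% of all genes were called higher and 15.8% lower.

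Matrix proteins that MMPs can cut were listed as 21, and 9 were tested. With LPS against DMSO 6 of the 9 rose (19.4% of all genes tested did) and 0 fell by edgeR, DESeq2 and limma-voom, with Vcan (versican, log2 fold change 7.90), Tnc (tenascin C, 9.63), Lamc1 (a laminin chain, 1.03) and Spp1 (osteopontin, 1.02) having the smallest p. Tnc had 0 to 3 counts per DMSO library and passed the filter through the LPS-containing groups, which favours its call. In SR9009 and LPS against LPS 2 of the 9 fell, where 0.737% of all genes did: Tnc, at 4.36 CPM with SR9009 and LPS and 42.0 CPM with LPS (log2 fold change -3.27, edgeR adjusted p = 0.00271), and Vcan, at 105 CPM with SR9009 and LPS and 385 CPM with LPS (-1.88, adjusted p = 0.0167). With SR9009 alone 0 passed by edgeR, 1 was higher at an unadjusted p under 0.05, and DESeq2 called 1 higher, edgeR with the mouse as a block 1 higher and limma-voom 0. In SR9009 and LPS against SR9009 6 rose, where 14.5% of all genes did, and 0 fell.

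Mmp8, Mmp9 and Mmp25 are also known from neutrophils, so markers of that cell type were read beside them. The 11 neutrophil markers summed to 90.4 to 163 CPM with SR9009 and LPS, 337 to 500.0 CPM with LPS, 20.3 to 88.1 CPM with SR9009 and 47.3 to 116 CPM with DMSO. Csf3r, the G-CSF receptor, which macrophages also express, made up most of these sums at 128 CPM with SR9009 and LPS, 409 CPM with LPS, 56.3 CPM with SR9009 and 83.9 CPM with DMSO. S100a8 averaged 2.18 CPM with SR9009 and LPS, 4.43 CPM with LPS, 0.485 CPM with SR9009 and 0.223 CPM with DMSO. Ly6g and Retnlg were at 0 in all libraries, and S100a9 had at most 4 counts in a library. Markers of fibroblasts or stromal cells, which also express MMPs and TIMPs, summed to 3.41 to 9.24 CPM with SR9009 and LPS, 6.74 to 15.9 CPM with LPS, 0.203 to 2.41 CPM with SR9009 and 1.07 to 2.91 CPM with DMSO, with Pdgfrb the largest. The part of either cell type in the changes of Mmp13, Mmp14, Mmp25 and Timp1 was not tested.

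For each member the 2 protein-coding genes with the most similar pattern were taken, by Pearson's r of log2 CPM over the 16 libraries among 9387 genes that averaged 5 CPM or more. Mmp13 was most like Pfkfb3 (r = 0.989) and Upp1 (0.987), Mmp14 like F10 (0.989) and Saa3 (0.983), Mmp25 like Trp53i11 (0.987) and Ist1 (0.987), Timp1 like Sco1 (0.968) and Slc16a1 (0.959), and Timp2 like Man1c1 (0.989) and Zfyve28 (0.981). Mmp12 was most like Asns (0.949) and Cd36 (0.922), Mmp9 like Ppp1r15a (0.952) and Prkcd (0.936), Mmp19 like Hpcal1 (0.909) and Mtmr3 (0.876), and Mmp8 like Ift52 (0.965) and Rfesd (0.956). These values are a description of libraries that fall into treatment groups and share mice. For Mmp8 they rest on the SR9009 library of mouse 1, without which Ift52 ranked 30 (r = 0.886) and Rfesd 46 (0.875).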

How the data were processed

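Messenger RNA of mouse bone marrow-derived macrophages was captured by poly(A), per the labels' protocols, in 16 libraries, with 1 library per mouse and treatment. Alignment used HISAT2 and the build GRCm39 (mm39), per the submitters' processing notes; how reads were counted, with or without strand and on which annotation, is not stated in the labels or notes. The deposited series table gives raw read counts for each gene, per the file headers. FPKM values, also deposited, were scaled by gene length and 1 factor per library, since count over length divided by FPKM was constant within each library. That factor did not follow the total counts. Mmp8 had 389 counts and 7.05 FPKM in the DMSO library of mouse 1, with 18539925 counts in total. In the LPS library of mouse 1 it had 157 counts and 5.55 FPKM, with 15819992 counts in total. Sums of FPKM compared between groups therefore also rest on this factor.

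Counts were analysed with R 4.3.3 and edgeR 4.0.16. Of 56748 genes, 13438 passed filterByExpr (minimum count 10, minimum total 15). A robust quasi-likelihood model with TMM scaling (factors 0.738 to 1.26) and a mean for each group was fitted to the 16 libraries together. The factors were 0.853 to 0.907 with SR9009 and LPS, 0.738 to 0.823 with LPS, 1.14 to 1.24 with SR9009 and 1.16 to 1.26 with DMSO. The p-values were adjusted by Benjamini-Hochberg over all genes tested, with a threshold of 0.05. SEs were derived from the test, as the absolute log2 fold change over the square root of F. Errors of levels are SD over 4 libraries, and the floor of 3 counts covers counting error only. The mouse number in the labels marks the animal, so the libraries of a mouse are paired. Deviations from group means correlated over 24 same-mouse pairs with r from 0.0604 to 0.623 (median 0.287). Over 72 pairs of different mice r ran from -0.648 to 0.596 (median -0.0835), so the ranges overlapped. The main fit did not use this pairing, and edgeR with the mouse as a replicate block was run as an alternative. Limma 3.58.1 and DESeq2 1.42.0 were also used for alternatives. The edgeR fit was tested on simulated data with known changes. Levels and promoter motifs were computed with Python 3.11.15, pandas 2.3.3 and numpy 2.4.6, and figures were drawn with matplotlib 3.10.9.

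The members and gene lists were chosen with earlier results of these data known. Named were all members, up to 4 called genes of each list per comparison with the smallest p, and the 2 genes most like each member (mean of at least 5 CPM). Promoter sequences come from RefSeq on GRCm38.p6 and were not placed on GRCm39 coordinates.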

Additional observations from a re-analysis of the deposited data

Results flagged for a closer look

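In 3 of 36 groups of 4 libraries, 1 library lay far from the others by Dixon's test at the 95% level; chance gives such a gap in about 1 in 20 groups. Mmp8 was highest in the SR9009 library of mouse 1, at 50.7 CPM, where the other 3 mice had 16.4 to 19.3 CPM. Mmp13 was lowest in the SR9009 and LPS library of mouse 1, at 97.9 CPM, where the other mice had 287 to 298 CPM. Mmp25 was highest in the SR9009 and LPS library of mouse 2, at 21.4 CPM, where the others had 6.93 to 7.92 CPM. The effect of SR9009 on Mmp13 differed between cells with and without LPS in the edgeR fit with the mouse as a block, with an interaction of -3.55 on the log2 scale (adjusted p = 0.0459). Without the block the edgeR fit did not pass the threshold (-3.57, adjusted p = 0.0753), and limma-voom called 0 members.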

How the results depend on the processing

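Of 1385 log2 fold changes of members recomputed under alternatives, 1301 kept their direction and their side of the threshold, 43 lost a call, 30 gained one and 11 changed sign, all of the last for members not called in that comparison. The calls of Mmp13, Mmp14, Mmp25, Timp1 and Timp2 with LPS against DMSO held in 31 of 31 alternatives each. A filter on low counts favours the Timp1 call where it was applied. The mouse as a replicate block called 198 genes with SR9009 against DMSO (118 without it), 535 with SR9009 and LPS against LPS (241) and 15 in the interaction (1), and changed 2 calls among members, both given above, with 1 member lower in the interaction. With the SR9009 library of mouse 1 left out and the block, an alternative chosen after seeing the data, the 5 comparisons called 8847, 586, 2900, 6845 and 271 genes (in the order LPS against DMSO, SR9009 against DMSO, SR9009 and LPS against LPS, SR9009 and LPS against SR9009, interaction), with 2 members lower in LPS against DMSO (Timp2 and Mmp8), 1 higher in SR9009 and LPS against LPS and 1 lower in the interaction, and Timp2 changed sign with SR9009 alone (log2 fold change 0.027). The compared groups alone gave 7 members higher with LPS (Mmp9, Mmp12 and Mmp19 beside the 4 given above), 4 genes and 0 members with SR9009, 486 genes with SR9009 and LPS against LPS, and 2113 genes and 1 member lower with SR9009 and LPS against SR9009; this alternative was not run for the interaction, which uses all groups. DESeq2 called 331 genes with SR9009, 706 with SR9009 and LPS against LPS, and 103 genes and 1 member in the interaction. With no filter, 149 genes were called with SR9009 and LPS against LPS, and 1 member was lower in the interaction. In SR9009 and LPS against SR9009, 1 member was lower with no filter, with limma-voom and with limma on log2(FPKM + 1) or log2(FPKM + 0.1). In the interaction limma-voom called 0 genes, limma on log2(FPKM + 1) 49 genes and 2 members, and limma on log2(FPKM + 0.1) 10 genes and 1 member. Leaving out 1 mouse or library gave 3506 to 7835 genes with LPS against DMSO, 1 to 242 genes and 0 to 1 members higher with SR9009, 5 to 1566 genes, 0 to 1 members higher and 0 to 3 lower with SR9009 and LPS against LPS, 2430 to 5935 genes and 1 to 2 members lower with SR9009 and LPS against SR9009, and 0 to 41 genes and 0 to 1 members lower in the interaction. It also turned the sign of uncalled members, with ranges of -2.003 to 0.11 for Mmp9 with SR9009 and, in SR9009 and LPS against SR9009, -0.37 to 0.19 for Mmp12 and -0.32 to 0.12 for Mmp19. The cause of these changes was not tested. Depth limits Timp1, Mmp25 and Mmp9 without LPS, where libraries held 0 to 91 counts.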

Other observations

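Other proteases and regulators that act beside MMPs were read from the same fit. Of 25 ADAM and ADAMTS proteases listed, 11 were tested, and with LPS against DMSO 3 rose and 1 fell by edgeR, where 19.4% of all genes tested were called higher and 20.4% lower. With the mouse as a block 3 rose and 2 fell. Adamts4, an aggrecanase, rose with a log2 fold change of 7.78 (edgeR adjusted p = 4.06e-06), and it averaged 71.1 CPM with SR9009 and LPS, 15.8 CPM with LPS, 0.118 CPM with SR9009 and 0.0683 CPM with DMSO. Its DMSO libraries held 0 to 3 counts, so it passed the filter through the LPS-containing groups, which favours that call. In mice 1 to 4 it had 125, 113, 22.7 and 24.1 CPM with SR9009 and LPS, and 30.0, 12.8, 8.94 and 11.4 CPM with LPS. Adam17, the shedding protease of TNF, rose with LPS (log2 fold change 0.71), as did Adam9 (0.79), and Adamts10 fell (-2.25). In SR9009 and LPS against LPS 0 passed by edgeR and limma-voom, DESeq2 and edgeR with the mouse as a block each called 1 higher, and an unadjusted edgeR p under 0.05 was reached by 1 that was higher and 1 that was lower. Of 16 cathepsins and cystatins, all tested, 3 rose and 1 fell with LPS against DMSO, beside the same 19.4% and 20.4% of all genes: Ctsc (log2 fold change 3.01), Cst7 (4.87) and Ctsz (0.83) rose and Ctse fell (-1.35). With SR9009 alone 0 of these 16 passed by edgeR, with or without the block, and limma-voom and 1 was lower by DESeq2 and at an unadjusted edgeR p under 0.05.

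Of 20 AP-1, ETS and NF-kB factor genes listed, families with known sites in MMP promoters, 18 were tested, and 12 rose and 1 fell with LPS against DMSO, where 19.4% of all genes were called higher and 20.4% lower. Atf3 averaged 621 CPM with SR9009 and LPS, 714 CPM with LPS, 117 CPM with SR9009 and 84.6 CPM with DMSO, and Ets2 averaged 279 CPM with SR9009 and LPS, 545 CPM with LPS, 49.2 CPM with SR9009 and 41.0 CPM with DMSO. With SR9009 and LPS against LPS 0 of the 18 passed by edgeR and limma-voom, where 2 were higher and 4 lower at an unadjusted edgeR p under 0.05, DESeq2 called 1 higher and 2 lower, and edgeR with the mouse as a block called 1 higher and 1 lower. With LPS after SR9009, against SR9009, 11 rose, where 14.5% of all genes did, and 0 fell. Markers of osteoclasts, which also express MMPs, summed to 29.7 to 42.3 CPM with SR9009 and LPS, 22.0 to 47.5 CPM with LPS, 32.5 to 38.3 CPM with SR9009 and 19.7 to 24.9 CPM with DMSO, and those of dendritic, B, T or NK, and mast cells or basophils to at most 1.84 CPM in a library.

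In both LPS-containing groups Mmp8, Mmp19, Timp1 and Timp2 were higher in mice 1 and 2 than in mice 3 and 4, and Mmp9 was lower. The other members did not split this way in both groups. In mice 1 to 4 Mmp8 had 15.9, 14.3, 9.69 and 10.8 CPM with SR9009 and LPS, and 13.1, 12.6, 9.43 and 10.3 CPM with LPS. Levels of Timp2 and Mmp9 by mouse are given above. Mmp19 had 50.4 and 51.5 CPM in mice 1 and 2, and 24.6 and 21.4 CPM in mice 3 and 4, with SR9009 and LPS, and 63.4, 75.3, 36.7 and 31.5 CPM in mice 1 to 4 with LPS. Its order differed with SR9009, where mouse 1 was lowest (28.8, 48.8, 40.3 and 37.6 CPM), and mice 1 and 2 were again higher with DMSO (36.0, 33.7, 27.7 and 23.999 CPM). Timp1 had 2.94 and 9.07 CPM in mice 1 and 2, and 1.14 and 1.66 CPM in mice 3 and 4, with SR9009 and LPS, and 19.6, 29.6, 10.8 and 11.1 CPM in mice 1 to 4 with LPS. Without LPS it was in another order, at 0, 0.292, 0.403 and 0.237 CPM in mice 1 to 4 with SR9009 and lower in mice 1 and 2 than in mice 3 and 4 with DMSO (0.182, 0.0769, 0.568 and 0.953 CPM). The labels give no batch for the mice, and a difference between them was not tested.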
